A study of Rattus norvegicus and Mus musculus with 74 samples.

Results

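Promoter regions that hold no CpG island were examined for 4 histone marks in rat and mouse brain cortex. A CpG island is a stretch of DNA rich in the dinucleotide CG. The deposited tables list merged regions, which are stretches where an interval of a mark had been called in at least 1 library, and count the promoters and CpG islands of each. Regions with at least 1 promoter and 0 islands numbered 7300 of 72824 in the rat table (10.0%) and 6904 of 60110 in the mouse table (11.5%). They made up a large minority of all promoter regions, since 8844 rat and 9409 mouse promoter regions held an island. The choice used the promoter and island counts alone, among regions listed because an interval had been called.

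The animals were Sprague-Dawley rats exposed before birth to VPA (valproate) and C57BL/6J mice whose prenatal exposure was to poly I:C, an artificial RNA duplex that mimics a viral infection. In each species, healthy controls that received vehicle, exposed animals that received vehicle and exposed animals that received TAK-418, which inhibits the histone demethylase LSD1, gave 3 libraries per mark and group. The labels give no age, dose or time of treatment, and they do not say whether each library stems from its own animal. The p-values therefore cover the spread between these libraries alone, which may be technical. The marks were H3K4me3, found at active promoters, H3K9Ac, an acetylation that accompanies active promoters and enhancers, H3K27me3, the Polycomb mark, and H3K9me3, the mark of constitutive heterochromatin. The unit throughout is the authors' mean signal over a region, which is an average per base of the region. It depends on how much weakly marked flank was merged into a region (199 to 198799 bases long in rats), so levels of different genes can be compared only roughly.

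Mammalian promoters are of broadly distinct kinds. CpG islands are usually free of DNA methylation, and proteins that bind unmethylated CG recruit the enzymes that write H3K4me3, so that island promoters carry this mark in most cell types. Promoters without an island usually serve genes used in 1 tissue or after a stimulus, and they gain H3K4me3 and acetylation mainly where the gene is in use. LSD1 removes methyl groups from mono- and dimethylated H3K4.

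Several libraries stood apart. In mouse H3K9me3, the correlation between vehicle libraries over tested regions was only 0.384 to 0.499, and the median signal over the promoter regions without an island was 3.24 in control 1 against 2.08 and 1.89 in the other controls. Mouse H3K4me3 control 1 was high (median 2.09 against 1.49 and 1.41), rat H3K27me3 control 3 was low, and rat H3K9Ac vehicle 3 was low (1.67 against 2.26 and 2.55). Correlations were also low between rat H3K9me3 controls (0.716 to 0.890), to which the exposed rats are compared for this mark. They were 0.759 to 0.937 between mouse H3K9Ac TAK-418 libraries. In mouse H3K9me3 they were 0.702 to 0.782 between controls and 0.419 to 0.840 between TAK-418 libraries. No read counts come with the signal, so depth is unknown.

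The DNA of some of these promoters is shown first, with its CG content and its matches to regulatory motifs. A window of 300 bases cannot show whether an island lies near it. The sequences are windows of 300 bases, from 250 before to 50 after the gene start, taken from RefSeq on the rat build GRCr8. The measured regions are on rn5, and positions on the builds were not compared. The first set holds rat interferon-inducible genes: Irgm2 (chr10:42889720-42890019, plus strand), Igtp (chr10:42874797-42875096, plus strand) and Ifi44 (chr2:243303791-243304090, minus strand). Capitals mark matches of GAAA, any 2 bases and GAAA again, on either strand, the core of the element that interferon-activated factors bind.
Irgm2: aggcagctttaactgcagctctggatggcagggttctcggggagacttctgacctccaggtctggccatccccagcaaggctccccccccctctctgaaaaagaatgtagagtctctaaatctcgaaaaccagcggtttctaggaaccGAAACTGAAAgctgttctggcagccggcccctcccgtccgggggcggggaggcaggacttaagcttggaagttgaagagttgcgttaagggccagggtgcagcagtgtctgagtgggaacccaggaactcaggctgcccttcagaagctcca
Igtp: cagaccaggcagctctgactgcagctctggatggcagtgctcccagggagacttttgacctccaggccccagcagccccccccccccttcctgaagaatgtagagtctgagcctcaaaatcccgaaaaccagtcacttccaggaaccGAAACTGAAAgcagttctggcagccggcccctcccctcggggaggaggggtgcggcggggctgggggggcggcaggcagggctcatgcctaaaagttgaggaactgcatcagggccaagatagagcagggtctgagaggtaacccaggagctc
Ifi44: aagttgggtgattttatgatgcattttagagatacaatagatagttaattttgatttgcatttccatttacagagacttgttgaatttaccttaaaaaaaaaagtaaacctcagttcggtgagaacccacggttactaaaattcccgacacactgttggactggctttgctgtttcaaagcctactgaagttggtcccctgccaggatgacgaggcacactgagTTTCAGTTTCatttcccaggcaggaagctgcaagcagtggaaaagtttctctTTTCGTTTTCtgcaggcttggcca
Irgm2 and Igtp, close relatives that encode immunity-related GTPases, held 1 match each, at 102 and 103 bases before the start (-102 and -103). Ifi44 held 2 matches, both on the opposite strand. Of 17 rat interferon-stimulated genes that start only in promoter regions without an island, 14 had a window in the reference (82.4%), and 11 of these 14 (78.6%) held the letters. Among all 27457 reference windows, 1034 (3.77%) held them. A match is a description, not a site or a cause.

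In the second set, capitals mark every CG. Scn2a1 (chr3:70710706-70711005, plus strand), Gpm6a (chr16:43706412-43706711, minus strand) and B3galt2 (chr13:57939474-57939773, plus strand) are brain genes whose relative change in H3K9Ac is described further on. Olr1381 (chr10:12988554-12988853, minus strand) is an olfactory receptor gene under H3K9me3. Npas4 (chr1:211716053-211716352, minus strand), an immediate early gene of neurons whose start lies in an island region, is given for contrast.
Scn2a1: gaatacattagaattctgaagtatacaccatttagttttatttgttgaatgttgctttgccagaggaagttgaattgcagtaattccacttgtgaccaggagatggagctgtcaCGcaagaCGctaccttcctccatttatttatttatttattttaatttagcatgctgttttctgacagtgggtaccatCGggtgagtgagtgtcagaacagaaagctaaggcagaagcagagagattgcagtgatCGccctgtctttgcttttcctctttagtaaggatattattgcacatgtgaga
Gpm6a: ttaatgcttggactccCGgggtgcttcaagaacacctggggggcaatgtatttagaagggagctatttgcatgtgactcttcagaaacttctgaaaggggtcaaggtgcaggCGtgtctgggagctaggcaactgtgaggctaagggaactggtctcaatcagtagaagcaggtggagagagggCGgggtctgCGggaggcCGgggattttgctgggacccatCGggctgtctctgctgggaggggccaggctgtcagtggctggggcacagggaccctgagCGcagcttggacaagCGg
B3galt2: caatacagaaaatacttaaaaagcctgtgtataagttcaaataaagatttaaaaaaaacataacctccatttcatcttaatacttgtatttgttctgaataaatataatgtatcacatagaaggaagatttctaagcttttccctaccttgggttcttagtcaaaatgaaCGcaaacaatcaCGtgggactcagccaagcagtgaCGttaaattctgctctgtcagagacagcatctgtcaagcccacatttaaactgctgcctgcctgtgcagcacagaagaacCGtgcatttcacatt
Olr1381: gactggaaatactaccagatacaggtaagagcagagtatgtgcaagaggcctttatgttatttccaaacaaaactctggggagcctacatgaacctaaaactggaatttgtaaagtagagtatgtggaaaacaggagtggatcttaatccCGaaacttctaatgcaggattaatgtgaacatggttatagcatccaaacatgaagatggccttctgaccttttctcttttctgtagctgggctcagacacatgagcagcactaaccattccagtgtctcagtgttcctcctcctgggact
Npas4: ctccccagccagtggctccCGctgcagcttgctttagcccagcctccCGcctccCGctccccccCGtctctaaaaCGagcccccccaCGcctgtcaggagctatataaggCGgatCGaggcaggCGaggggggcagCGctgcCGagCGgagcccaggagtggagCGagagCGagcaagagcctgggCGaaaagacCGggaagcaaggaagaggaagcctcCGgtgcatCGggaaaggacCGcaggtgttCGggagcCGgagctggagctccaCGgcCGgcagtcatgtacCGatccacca
The Scn2a1 and B3galt2 windows held 4 CG each, the Gpm6a window 8 and the Olr1381 window 1, against 24 in the Npas4 window. The ratio of CG observed to CG expected from base composition was 0.353 for Scn2a1, 0.405 for B3galt2, 0.345 for Gpm6a and 0.0733 for Olr1381, and 0.713 for Npas4. Over all reference windows the median ratio was 0.417, with a median of 7 CG. Olfactory receptor genes (293 of 352 with a window, 83.2%) had a median of 1 CG and a ratio of 0.107, and vomeronasal receptor genes (73 of 85) a ratio of 0.0968. Chemokines and interleukins (24 of 27) had a ratio of 0.237 and the interferon-stimulated genes one of 0.283. Of 17 keratin and keratin-associated genes with a window, 11 (64.7%) held the letters TATAAA on either strand, the core of the TATA box, against 14.3% of all windows. Windows were found for 62.0% of all genes that start only in these regions, too few for a comparison of the whole class. Of the 877 among them whose region carried H3K4me3 and H3K9Ac alone in controls, 646 had a window (73.7%). These 646 had a median ratio of 0.584 and a median of 12 CG, and 46.4% had a ratio of at least 0.6. The Scn2a1, Gpm6a and B3galt2 windows were thus poorer in CG than is typical of those found for active regions of the class.

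The regions were of unlike build. A gene start lay inside 3814 of the rat regions (52.2%) and 3912 of the mouse regions (56.7%), against 95.5% and 98.6% of the island regions. The others lay beside a start: the tables' promoter calls matched a window from 7500 bases before to 2500 bases after a start. Of the regions that held no start, 31.0% in rats and 22.9% in mice named a gene that starts in an island region, so part of the class is the flank of an island promoter. Median length was 6799 bases in rats and 8399 in mice, shorter than the 11799 and 14199 of island regions, and 88.6% and 86.6% held a single promoter.

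In control cortex, promoter regions without an island carried the active marks far less often than island regions. H3K4me3 intervals covered 22.8% ± 0.399 of the rat regions (SD, n = 3 libraries) against 94.7% ± 0.579 of the island regions, and 21.1% against 93.9% in mice. H3K9Ac intervals covered 23.3% against 92.6% in rats and 20.0% against 88.6% in mice. Among regions that hold a start, 37.3% in rats and 34.8% in mice had H3K4me3. H3K27me3 intervals covered 23.2% ± 7.68 against 39.4% ± 8.45 in rats and 19.1% ± 6.44 against 27.0% ± 3.33 in mice. H3K9me3 had the opposite order, with 21.4% against 9.63% in rats and 26.2% against 6.11% in mice, where the 3 control libraries ranged widely (SD 19.1 and 4.01). Median H3K4me3 signal was 1.24 over the rat regions and 15.2 over rat island regions.

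**Figure D1:**
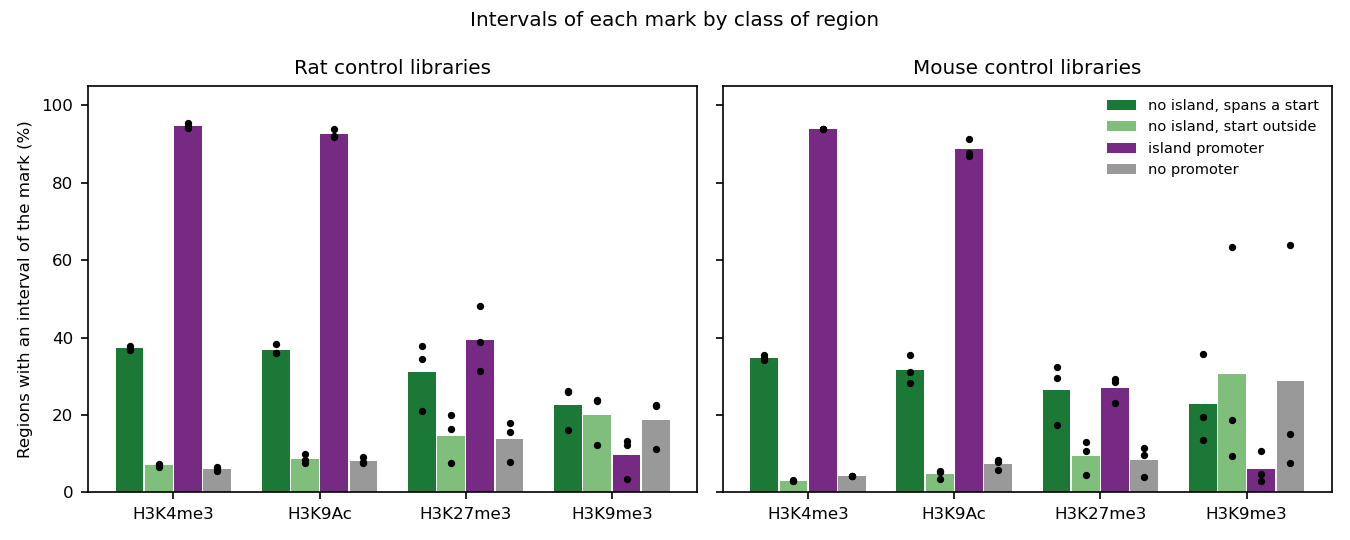
Percent of regions with a called interval (vertical axis) for each mark and region class in control cortex of rats and mice; bars are means and points the 3 control libraries. H3K4me3 and H3K9Ac cover 88.6% or more of island promoters and at most 37.3% of the other classes, while mean H3K9me3 is higher over promoters without an island than over those with one.

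A mark was counted as present where at least 2 of 3 control libraries had an interval. Of the 3814 rat regions that hold a start, 837 (21.9%) carried H3K4me3 with H3K9Ac and neither silencing mark. No mark was present in 826 (21.7%), H3K9me3 alone in 677 (17.8%) and H3K27me3 alone in 599 (15.7%). A further 312 (8.18%) carried H3K4me3, H3K9Ac and H3K27me3 together, which in bulk tissue can come from different cells. In mice the order was similar, with 25.9% unmarked, 21.1% with both active marks, 17.0% with H3K27me3 alone and 16.2% with H3K9me3 alone. Island regions carried both active marks alone in 57.6% (rats) and 66.4% (mice). Rat regions that only flank a start were unmarked in 59.9%.

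**Figure D2:**
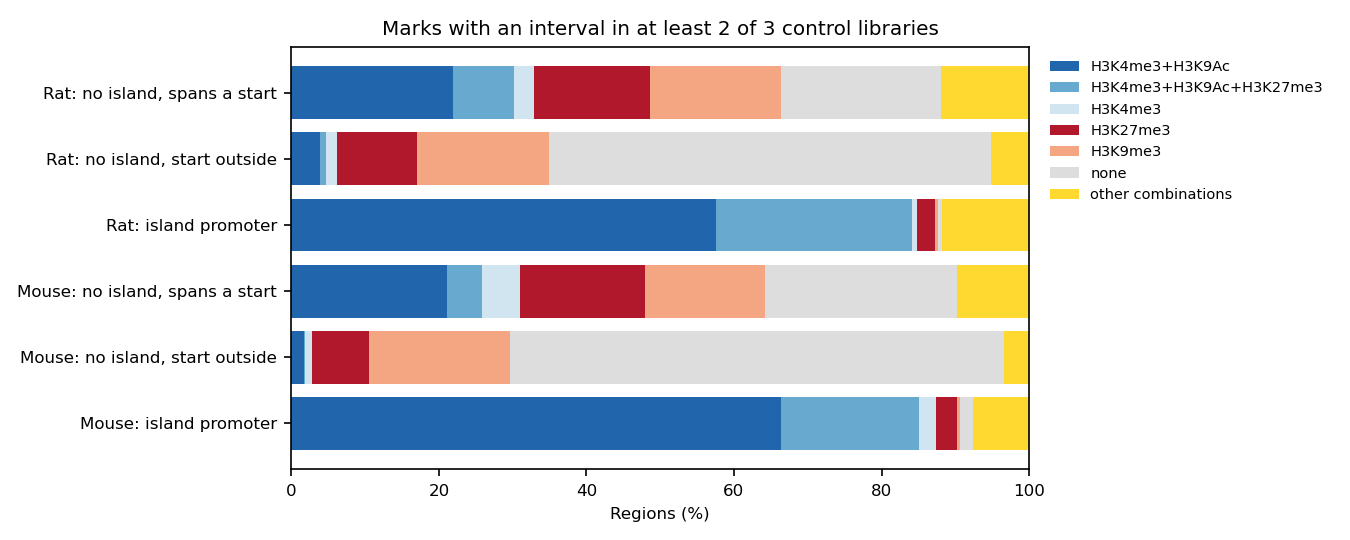
Share of regions (horizontal axis, percent) by the combination of marks present in at least 2 of 3 control libraries, for promoter regions without an island that hold a start, those that do not, and island promoter regions of each species. The class without an island that holds a start splits into active, unmarked, H3K9me3 and H3K27me3 groups of 15.7% to 21.9% each in rats, whereas active marks fill most of the island bars.

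The genes that start only in these regions numbered 4075 of 16173 genes with a start in a promoter region in rats (25.2%) and 4487 of 19198 in mice (23.4%). Many gene lists lay far from these shares, and others, such as mouse myelin genes, near them. All 85 rat and all 102 mouse vomeronasal receptor genes with a start in a promoter region started only there. So did 352 of 367 (95.9%) and 267 of 281 (95.0%) olfactory receptor genes. Defensins were at 13 of 14 and 33 of 34, and cytochrome P450 genes at 42 of 63 and 52 of 70. Chemokines and interleukins were at 27 of 45 in both species, interferon-stimulated genes at 17 of 28 and 21 of 30, and microglia genes at 16 of 30 and 14 of 25. Genes of neuron terminal differentiation were at 16 of 40 and 17 of 43, and myelin genes at 9 of 27 and 7 of 28. At the other end, 0 of 19 rat and 0 of 20 mouse immediate early genes and 1 of 70 and 0 of 71 ribosomal protein genes started there. The class was largely shared between species: of 2079 such rat genes with a mouse start of the same symbol, 1304 (62.7%) also lay in a mouse region without an island, against 3.85% of 10080 rat island genes.

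**Figure D3:**
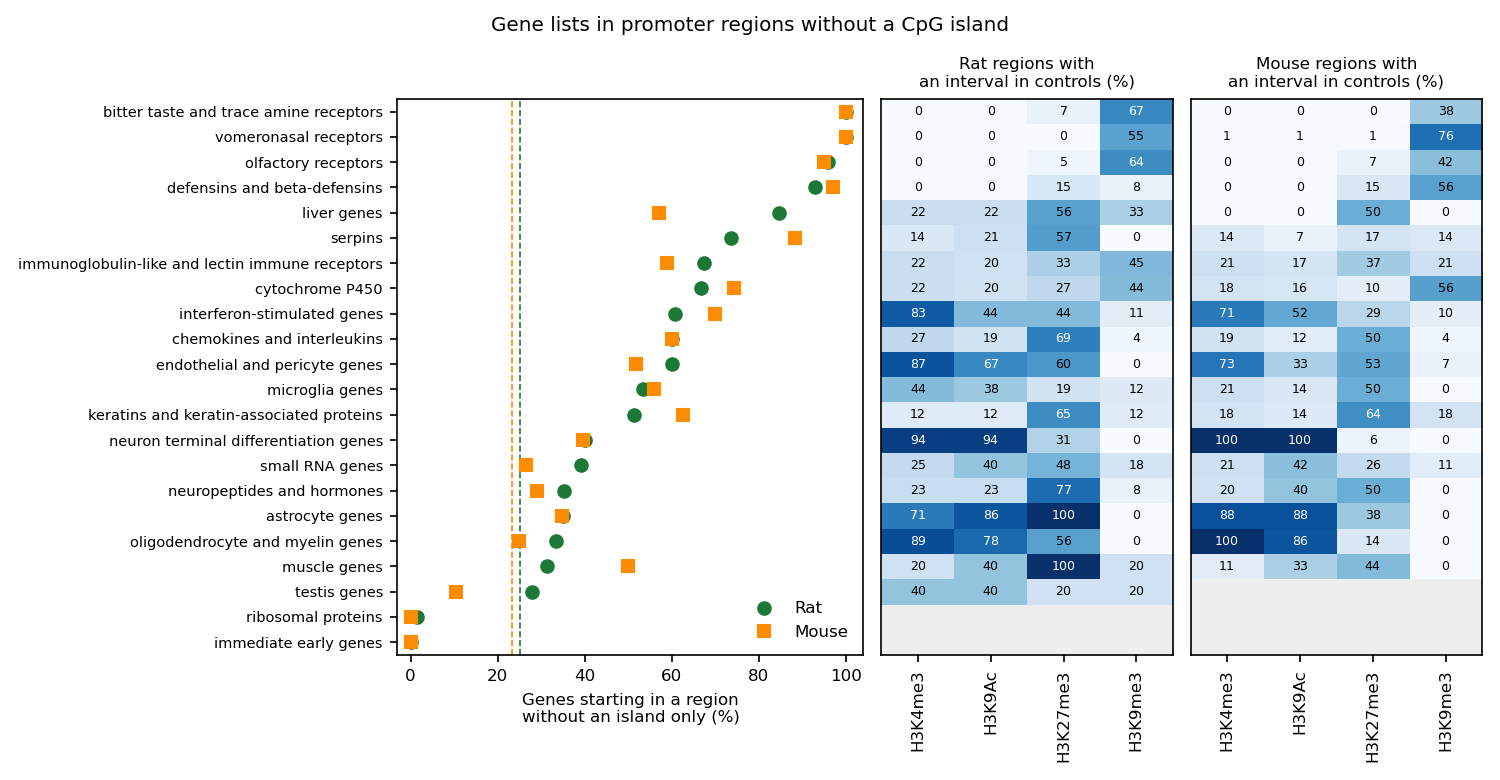
Dots give the percent of each list's genes that start only in a promoter region without an island (dashed lines, all genes), and the heat maps the percent of the list's regions with an interval in at least 2 of 3 control libraries for each mark. Chemosensory receptor lists have H3K9me3 and almost no H3K4me3, and neuron and myelin lists have the active marks. The rat chemokine, keratin and neuropeptide lists have H3K27me3 in over 60% of regions.

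Neuronal genes held the highest active marks of any list. H3K4me3 was present over 15 of 16 rat and 17 of 17 mouse regions of the neuron list, and H3K9Ac over 15 and 17, while H3K9me3 was present over 0 in either species. The labelled tissue, cortex, thus carried active marks at the promoters of its neurons. Rat Stmn2, a regulator of microtubules in growing axons (chr2:115210200-115216599, rn5), had H3K4me3 of 18.6, 31.1 and 25.2 in controls 1 to 3 (mean 25.0 ± 6.25). Snap25, a component of the machinery that fuses synaptic vesicles, had 21.5, 22.4 and 26.3, and Vsnl1, a neuronal calcium sensor, 19.2, 19.3 and 21.6. These genes overlapped one another, and Cdh10, a cadherin, was the lowest of the 15 at 13.3 ± 1.61. The remaining gene was Calb2 (calretinin, a marker of a class of interneurons), with H3K4me3 of 1.72, 1.69 and 1.69 and H3K27me3 of 6.53, 8.31 and 3.46. Mouse Gria2, an AMPA receptor subunit, had H3K4me3 of 40.1, 19.9 and 19.4, with the high value in the library that was high throughout. Syt1, the calcium sensor of vesicle release, had a mean of 21.8 ± 8.65 there. Slc17a6, the vesicular glutamate transporter of mainly subcortical neurons, was the lowest of the 17 at 7.04 ± 2.38 and carried H3K27me3 of 8.06 ± 1.18 as well.

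Glial and vascular genes carried the same marks at lower levels. In rats, 8 of 9 myelin regions had H3K4me3, led by Gpr17, a receptor of immature oligodendrocytes (5.00 ± 1.08), with Mobp, a myelin protein, at 3.80 ± 0.537. Enpp6, of newly formed oligodendrocytes, was the exception at 2.62 ± 0.276. In mice all 7 had it, with Ermn at 11.1 ± 5.67. Endothelial and pericyte regions had H3K4me3 in 13 of 15 (rats) and 11 of 15 (mice), with Itm2a, a membrane protein of endothelium, at 7.28 ± 1.37 and 7.39 ± 2.62. All 7 rat astrocyte regions carried H3K27me3 and 5 carried H3K4me3. Gja1, the gap junction protein connexin 43, had 9.21 ± 1.26 of H3K4me3 and 6.20 ± 2.13 of H3K27me3. Aldh1l1, a folate enzyme used as an astrocyte marker, had 1.49 ± 0.305 and 4.97 ± 2.06. Microglia regions had H3K4me3 in only 7 of 16 and 3 of 14, with Ly86, a partner of a Toll-like receptor homologue, highest in rats at 4.36 ± 0.711. In bulk cortex, fewer cells of a type and less mark per cell cannot be told apart.

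Interferon-stimulated genes were marked in control cortex without a labelled stimulus. H3K4me3 was present over 15 of 18 rat and 15 of 21 mouse regions. Ddx58, which encodes the RNA sensor RIG-I, had 9.85, 14.4 and 11.2 in rat controls. The Irgm2 region with the higher signal (chr10:43431800-43443799, rn5) had 5.50, 6.61 and 6.44, and Igtp 4.69, 7.36 and 5.40, so these 2 genes, whose promoters are printed above, overlapped and lay below Ddx58. Ifi44 was lower still at 4.61 ± 0.769. Rsad2, the antiviral enzyme viperin, was at 3.49 ± 0.743. Oas3 and Mx1, which act against viral RNA and viral particles, stood apart at 1.33 ± 0.344 and 1.28 ± 0.167, and carried H3K27me3 alone (4.97 ± 1.89 at Oas3). Mouse Irgm1 had 16.6, 9.35 and 8.26 and Ifih1, the RNA sensor MDA5, a mean of 10.3 ± 3.83. Zbp1, a sensor of Z-form nucleic acid, had 1.82 ± 0.559 with H3K27me3 of 5.51 ± 1.26.

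H3K27me3 was present at many genes of secreted signals and at keratins, proteins of epithelial filaments. The mark lay over 18 of 26 rat and 13 of 26 mouse chemokine and interleukin regions, 10 of 13 and 5 of 10 neuropeptide and hormone regions, and 11 of 17 and 14 of 22 keratin regions. Other lists carried it too, with 9 of 15 rat and 8 of 15 mouse endothelial and pericyte regions and 5 of 9 and 1 of 7 myelin regions. Cxcl1, a neutrophil chemokine, had 7.71, 9.77 and 4.62 in rat controls, and its neighbour Cxcl2 had 7.31, 9.65 and 4.14. Calcb, a calcitonin gene-related peptide, had 7.93, 10.5 and 3.95, and Pdyn, the precursor of dynorphins, 8.23, 9.77 and 4.22. In each of these genes control 3, low for the mark throughout, gave the lowest value. Mouse Trh, thyrotropin-releasing hormone, had 5.97, 9.61 and 9.51. The clear exception was Scg2, a granin of secretory vesicles, with H3K4me3 of 7.39 ± 1.15 in rats and 11.5 ± 4.96 in mice. Il12a, an interleukin subunit, had 10.2 ± 1.08 in rats.

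Many listed start regions of chemosensory receptor genes, silent outside sensory epithelia, carried H3K9me3. The mark was present over 194 of 301 rat (64.5%) and 103 of 244 mouse (42.2%) olfactory receptor regions. It was present over 48 of 87 and 75 of 99 vomeronasal receptor regions. Regions are listed only where an interval was called. Only 367 of 781 rat and 281 of 833 mouse olfactory receptor genes named in any region had a start in a promoter region. For vomeronasal receptor genes it was 85 of 153 and 102 of 240. The shares therefore describe listed regions and not the whole families. Other lists carried H3K9me3 too, with 18 of 41 rat and 28 of 50 mouse cytochrome P450 regions. Defensin regions had it in 1 of 13 and 15 of 27, and regions of immunoglobulin-like and lectin immune receptors in 29 of 64 and 11 of 52. H3K4me3 was present over 0 of the 301 rat olfactory and 0 of the 87 rat vomeronasal regions, and over 1 of each mouse list. Levels were low beside those of active marks. Olr1381 had 3.24, 5.74 and 4.20, Olr875 (chr7:3408400-3414199, rn5) 3.50, 4.63 and 4.51, and Vom2r56 4.55, 4.62 and 5.44 in rat controls. Mouse Olfr1024 had 11.8, 4.63 and 3.61, with control 1 high as in that mark as a whole. Reads in such multigene families may be shared between copies, and how the authors treated them is not given in the sources used here.

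Single regions reached far higher levels than the lists. Rat Zfp955a, a zinc finger gene, led both active marks, with H3K4me3 of 70.8, 81.6 and 85.9 in controls and H3K9Ac of 41.4, 38.6 and 40.2. It was followed for H3K4me3 by Mark1, a microtubule affinity-regulating kinase (52.1 ± 15.3), and Ano4, an anoctamin membrane protein (43.2 ± 7.65). The Zfp955a, Mark1 and Ano4 regions were only 599, 999 and 1599 bases long. The median was 9599 for rat regions without an island that hold a start, and mean signal depends on length. In mice, Fam5c (29.8 ± 14.4), Snurf of an imprinted locus (26.5 ± 12.5) and Gria2 were among the 5 highest. For H3K9me3 the zinc finger gene Zfp112 was among the 5 highest in both species, at 10.4 ± 4.08 in rats and 8.93 ± 5.99 in mice, and its region also held both active marks. The highest H3K27me3 values were over Rn28s in rats (26.4 ± 9.76) and n-R5s136 in mice (30.2 ± 4.97), ribosomal RNA copies whose reads cannot be assigned with certainty.

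Changes between groups were tested with limma on log2(signal + 1), fitted over all regions with an interval of the mark in at least 3 of 9 libraries. The tested promoter regions without an island numbered 1821 (H3K4me3), 2149 (H3K9Ac), 2042 (H3K27me3) and 2614 (H3K9me3) in rats, and 1503, 1369, 1642 and 2208 in mice. The groups differed in overall signal, so each comparison was made as deposited and again after median centring and after quantile normalization. A relative change is one past an adjusted p of 0.05 under both rescalings in the same direction. The labels' library names carry a tag dm that they do not explain, and whether added reference chromatin set the deposited scaling is not known. Rescaling removes any overall difference between groups, real or technical, so relative calls describe change against the other regions only.

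In rat H3K9Ac the groups moved by different amounts at promoters without an island and at island promoters. In VPA-exposed rats given vehicle, acetylation was higher than in controls at both kinds of promoter, with a smaller median change where there was no island. With TAK-418 it was lower than with vehicle, again with a smaller median change where there was no island. Regions with no promoter had median changes of 0.69 and -0.28, close to the 0.68 and -0.30 at promoters without an island. The gap between the medians of the 2 classes (promoters without an island minus island promoters, log2 signal + 1, tested regions) was -0.775, -0.699 and -0.676 in controls 1 to 3. It was -0.945, -0.885 and -0.906 in the vehicle libraries and -0.613, -0.688 and -0.647 in the TAK-418 libraries. The vehicle libraries overlapped neither other group. With 3 libraries against 3, an exact two-sided permutation test cannot go below p = 0.1, so the gap is given as a description. Vehicle 3 and TAK-418 library 3 had nearly the same median over promoters without an island (2.46 and 2.43 on the log2 scale), and their gaps were -0.906 and -0.647. This pair was picked after its values were seen, and the part of overall signal level in the gap was not tested.

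**Figure D4:**
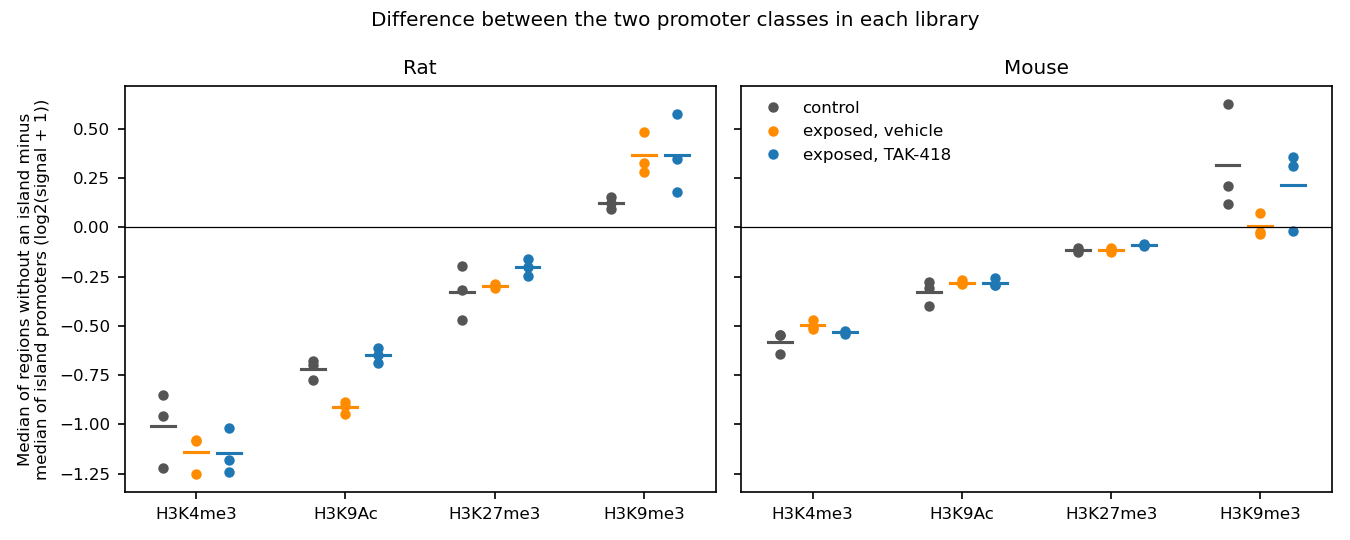
Median log2(signal + 1) of tested promoter regions without an island minus that of island promoter regions (vertical axis) for each library, by group, mark and species. In rat H3K9Ac the 3 vehicle points lie below all control and TAK-418 points.

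Against controls, 1759 of 2149 rat regions (81.9%) rose in H3K9Ac in the vehicle group as deposited, with 90.8% of all tested regions called and 98.1% of island regions. The median log2 change was 0.68, against 0.78 over all tested regions and 0.87 over island regions. The count was 1111 without vehicle 1 and 1101 without vehicle 2. After rescaling the direction turned: under both rescalings 0 rose and 17 fell, where 0.0396% of all tested regions rose and 0.322% fell. Relative to other regions, B3galt2, a galactosyltransferase of brain, fell by 1.06 on the log2 scale after centring (limma, Benjamini-Hochberg adjusted p = 0.0144). Its H3K9Ac was 4.94, 5.12 and 4.46 in controls and 3.51, 4.07 and 3.80 with vehicle, groups that did not overlap as deposited. Gpr22, an orphan receptor of brain and heart, Gpm6b, a proteolipid of neurons and glia, and Omg, a myelin glycoprotein that limits neurite growth, were also among the 17. The 17 came to 0 without control 2, vehicle 1 or vehicle 2, to 1 without control 3 and to 7 without TAK-418 library 3, and rose to 97 without control 1, 67 without TAK-418 library 1 and 174 without vehicle 3.

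Between TAK-418 and vehicle in VPA-exposed rats, 39 of 2149 regions (1.81%) fell as deposited and 0 rose. Of all tested regions 9.56% fell and 0.017% rose, and of island regions 15.7% fell. The median change was -0.30, against -0.41 over all tested regions and -0.53 over island regions. Under both rescalings 115 regions rose (5.35%) and 7 fell, with 2.2% of all tested regions rising and 1.17% falling. Among 8424 island regions the order was the other way, with 27 rising and 152 falling. Among 7106 regions with no promoter it was as at promoters without an island, with 247 rising (3.48%) and 48 falling. Of the 115 regions, 101 (87.8%) held a gene start and 108 (93.9%) carried an H3K4me3 interval in controls. In the band of mean log2 level from 3 to 8, 63 of 597 regions without an island and 21 of 6164 island regions rose, and in the band from 2.5 to 3 the counts were 38 of 641 and 6 of 1432. Regions with no promoter gave 58 of 1278 and 81 of 1530 in these bands. Leaving out vehicle 1 or vehicle 2 brought the 122 relative calls to 0, and leaving out TAK-418 library 1 brought them to 3. Leaving out any other library gave between 87 and 151. The replicate number carried as a block left 58 of them by count.

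Several genes of the neuron list were among the 115. Scn2a1, a voltage-gated sodium channel subunit (chr3:58321600-58325199, rn5), had H3K9Ac of 9.47, 9.06 and 7.41 in controls, 8.15, 6.80 and 7.68 with vehicle and 13.7, 12.0 and 9.85 with TAK-418. All 3 TAK-418 libraries lay above the other 6. TAK-418 libraries lay above all vehicle libraries in 9 of 2149 regions (0.419%) and in 0.305% of all tested regions. The change from vehicle to TAK-418 was 0.58 ± 0.254 (SE) as deposited, which did not pass (limma, Benjamini-Hochberg adjusted p = 0.092), 0.98 after centring (adjusted p = 0.00566) and 1.05 after quantile normalization (adjusted p = 0.0196).

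Gpm6a, a proteolipid of neuronal membranes that promotes filopodia (chr16:39248000-39255999), had 7.81, 8.53 and 8.14 in controls, 7.35, 7.41 and 7.84 with vehicle and 14.8, 11.1 and 9.50 with TAK-418. Again the TAK-418 libraries lay above all others, and control and vehicle overlapped in part. Its change was 0.57 as deposited (limma, Benjamini-Hochberg adjusted p = 0.0989) and 0.96 and 1.04 after the rescalings (adjusted p = 0.0071 and 0.0246). B3galt2 (chr13:65423600-65432199) went from 3.51, 4.07 and 3.80 with vehicle to 8.71, 6.85 and 5.05 with TAK-418, by 0.69 as deposited and 1.09 and 0.91 after rescaling (adjusted p = 0.0538, 0.00454 and 0.0196 by limma with Benjamini-Hochberg adjustment). This comparison shares its vehicle libraries with the one against controls, in which the gene was relatively lower.

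Lrrtm2, a synaptic organizer, had means of 8.71 ± 0.859, 9.87 ± 1.35 and 12.2 ± 2.89 in control, vehicle and TAK-418. Sepw1, a selenoprotein whose start lies outside its region, had 5.83 ± 1.11, 10.8 ± 4.24 and 12.6 ± 0.173. In Lrrtm2 and in Sepw1 the vehicle and TAK-418 libraries overlapped. Further genes among the 115 were Flrt3, a synaptic adhesion molecule, Scn3a and Cacnb4, channel subunits, Elavl4 and Celf2, RNA-binding proteins of neurons, Dcx and Gap43, of growing neurites, and Htr2a, a serotonin receptor. The genes of this paragraph were picked out after their values were seen. Their rise is relative to other regions. As deposited, Gap43 and Htr2a changed by -0.12 and -0.087 from vehicle to TAK-418, and Celf2 by 0.11.

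**Figure D5:**
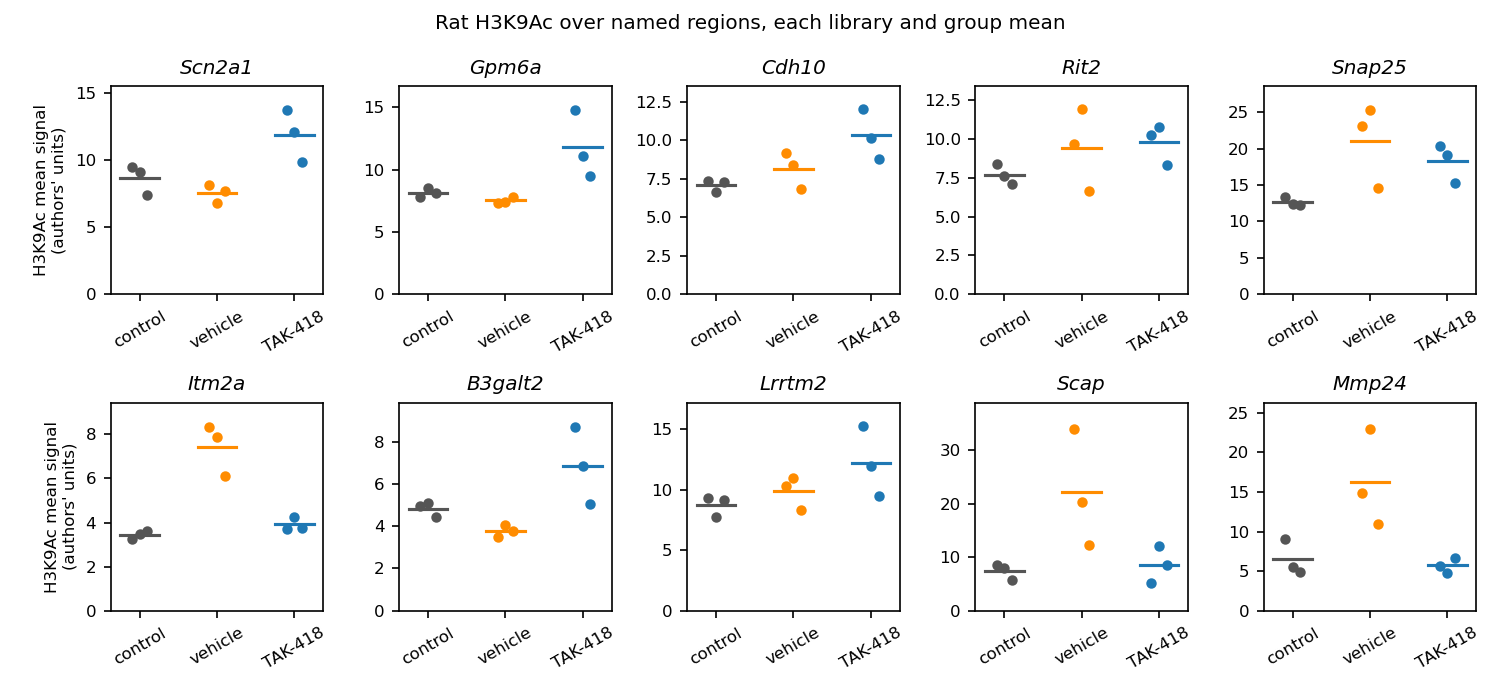
H3K9Ac mean signal (vertical axes, authors' units) in each rat library for 10 genes that start in or beside a promoter region without an island; points are libraries and lines group means. TAK-418 points lie above all vehicle points for Scn2a1 and Gpm6a, while for Itm2a and Mmp24 the vehicle points stand above both other groups.

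By list, 7 of 15 tested neuron regions without an island rose under both rescalings (Snap25, Vsnl1, Scn2a1, Gpm6a, Rit2, Gria1 and Cdh10), against 0 of 23 neuron regions with an island. The lists were chosen with earlier results of these data known, so the counts by list are a description. The median change of the 15 was -0.18 as deposited, 0.22 after centring and 0.35 after quantile normalization. As deposited 0 of the 15 passed. Snap25 had 23.0, 25.3 and 14.5 with vehicle and 20.3, 19.1 and 15.3 with TAK-418, groups that overlapped. Stmn2, which was not called, had 25.1, 27.6 and 14.7 with vehicle and 14.6, 16.5 and 10.9 with TAK-418. In the lists of other cell types, 0 of 7 myelin, 1 of 7 astrocyte (Slc1a3, a glutamate transporter), 0 of 8 microglia and 0 of 11 endothelial regions rose. Among all tested promoter regions without an island 115 of 2149 rose, and among all tested regions 2.2%. These other lists are too small for their counts to be told from those shares. Summed H3K9Ac over the 16 neuron regions ranged from 124.5 to 137.1 in controls, from 144.9 to 242.2 with vehicle and from 146.9 to 195.2 with TAK-418. Over the 9 myelin regions the ranges were 25.6 to 26.9, 28.5 to 53.9 and 30.6 to 42.8, and over the 16 microglia regions 36.6 to 40.4, 42.7 to 73.4 and 42.9 to 57.1. No region of these lists was at 0 in every library of a group. The part of cell composition in the result was not tested.

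The 7 regions that fell under both rescalings included Chd7, a chromatin remodeller, Ocrl, a phosphoinositide phosphatase, and Itm2a, the single endothelial call. Itm2a H3K9Ac was 3.23, 3.46 and 3.62 in controls, 8.33, 7.88 and 6.11 with vehicle and 3.72, 4.26 and 3.76 with TAK-418, so the vehicle group stood above both others without overlap. Its change from vehicle to TAK-418 was -0.77 as deposited (limma, Benjamini-Hochberg adjusted p = 0.0346). TAK-418 libraries lay below all vehicle libraries in 4.51% of the tested promoter regions without an island and in 17.2% of all tested regions. Chd7 went from 3.85 ± 0.844 through 7.68 ± 1.78 to 3.97 ± 0.741, a change of -0.79 from vehicle to TAK-418 (adjusted p = 0.0315, same test). Among the 39 that fell as deposited, Lor, which encodes the skin protein loricrin, went from 8.73 ± 3.03 through 21.6 ± 5.14 to 8.00 ± 1.65, and Mmp24, a membrane metalloproteinase, from 6.49 ± 2.27 through 16.3 ± 6.13 to 5.71 ± 0.953. The changes from vehicle were -1.32 and -1.31, with the same adjusted p = 0.000218 (limma, Benjamini-Hochberg). Scap, a regulator of sterol synthesis, went from 7.45 ± 1.47 through 22.1 ± 11.0 to 8.56 ± 3.44 over a region of few bases (chr8:117914000-117914399). The count of 39 was 1728 without vehicle 3, and at most 15 without control 1, control 2, control 3, vehicle 1, vehicle 2, TAK-418 library 1 or TAK-418 library 3, where it was 15, 11, 7, 2, 3, 0 and 4.

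Between TAK-418 and controls, 0 of 2149 rat regions were called for H3K9Ac by limma, with 0.0% of all tested regions called. At an unadjusted p under 0.05 there were 488. The median change was 0.39, against 0.37 over all tested regions. Without vehicle 3, whose spread enters the shared estimate of error, 1531 were called.

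Rat H3K4me3 was higher with TAK-418 than in controls as deposited. With TAK-418 against controls 1073 of 1821 regions (58.9%) rose, where 72.8% of all tested regions and 81.7% of island regions were called, and the median change was 0.48 against 0.58 and 0.62. Under both rescalings 0 were called, with 0.0% of all tested regions. Ak1, an adenylate kinase, had 3.00, 7.00 and 4.70 in controls and 17.8, 10.2 and 15.2 with TAK-418, without overlap. Its change was 1.41 as deposited (limma, Benjamini-Hochberg adjusted p = 6.986e-08) and 0.79 after centring (adjusted p = 0.212, same test). TAK-418 libraries lay above all controls in 57.9% of the tested promoter regions without an island and in 50.8% of all tested regions. Git1, a scaffold of synaptic spines, went from 4.98 ± 2.07 to 12.2 ± 2.09 and Sgpl1, a sphingolipid lyase, from 9.82 ± 3.08 to 25.0 ± 5.77. The count was 302 without control 1, 261 without TAK-418 library 1 and 412 without TAK-418 library 3.

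With vehicle against controls 42 rat regions (2.31%) rose in H3K4me3 as deposited, with 1.64% of all tested regions and 1.17% of island regions called, and 0 under both rescalings. They included Thpo, thrombopoietin (7.12 ± 4.13 to 14.6 ± 1.02), and Zxdb, a zinc finger gene (22.1 ± 12.1 to 40.9 ± 2.70). The count was 1 without control 1 or vehicle 2, 2 without vehicle 1, 6 without control 3, 17 without vehicle 3, 19 without TAK-418 library 1, 199 without TAK-418 library 2 and 333 without control 2. Between TAK-418 and vehicle 1 region rose (0.0549%), where 0.224% of all tested regions were called. It was Magee2, a MAGE family gene of the X chromosome, with 6.46, 5.43 and 4.24 with vehicle and 10.6, 8.55 and 12.4 with TAK-418 (change 0.85, limma, Benjamini-Hochberg adjusted p = 0.0311). It was not called after either rescaling, and the count was 0 without control 3, any vehicle library, TAK-418 library 1 or TAK-418 library 3, 5 without control 1 or control 2 and 26 without TAK-418 library 2.

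As deposited, rat H3K9me3 was higher in exposed animals at promoters without an island, and also over the tested regions as a whole. With vehicle against controls 1714 of 2614 regions (65.6%) rose as deposited, where 56.2% of all tested regions were called. Of 1176 island regions 113 (9.61%) were called, and the median changes were 0.53 and 0.29. With TAK-418 against controls 1121 (42.9%) rose, where 39.5% of all tested regions and 4.34% of island regions were called. None of these was called under both rescalings, where 0.0% and 0.00383% of all tested regions were. Between TAK-418 and vehicle limma called 0, with 5 at an unadjusted p under 0.05 and 2 calls when TAK-418 library 1 was left out. The part of the lower H3K9me3 level of island regions in this difference was not tested.

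Receptor genes were among those that rose. Of 256 tested rat olfactory receptor regions 212 rose with vehicle as deposited, with a median change of 0.57 that was 0.07 after centring. The share that rose was 65.6% over all tested promoter regions without an island and 56.2% over all tested regions, and under both rescalings 0 olfactory receptor regions were called. Of 70 vomeronasal regions 60 rose as deposited. Olr1381 had 3.24, 5.74 and 4.20 in controls, 8.96, 11.4 and 8.68 with vehicle and 13.8, 7.00 and 8.85 with TAK-418, so both exposed groups lay above controls and overlapped each other. Its change with vehicle was 1.00 (limma, Benjamini-Hochberg adjusted p = 0.0243). Olr875 went from a mean of 4.21 ± 0.62 to 8.45 with vehicle and 8.24 with TAK-418, and Vom2r56 from 4.87 ± 0.494 to 10.5 and 10.4. Spetex-2E, one of a family of near-identical testis genes and so uncertain, rose from 8.93 ± 2.09 to 23.1 ± 5.23 over the region that holds its start. Stac2, an adaptor protein of calcium channels, rose from 2.26 ± 0.339 to 6.47 ± 2.04 with TAK-418. The count of 1714 was 12, 16 and 21 without control 1, 2 or 3, 41 without vehicle 1 and 1 without vehicle 2. The count of 1121 was 16, 1 and 2 without control 1, 2 or 3, 95 without vehicle 1, 417 without vehicle 3, 79 without TAK-418 library 1 and 1898 without TAK-418 library 3.

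Rat H3K27me3 showed no calls. Limma called 0 of 2042 regions in each of the 3 comparisons, with 0.0% of all tested regions called. At an unadjusted p under 0.05 there were 1 with vehicle against controls and 0 in the others. Median changes were 0.04, 0.12 and 0.15 for vehicle against control, TAK-418 against vehicle and TAK-418 against control. The smallest p for an increase with vehicle was at Brs3, a bombesin receptor, with 2.17, 1.17 and 1.65 in controls and 2.89, 3.85 and 2.17 with vehicle. Pdyn had 7.41 ± 2.86 in controls, 8.29 with vehicle and 9.06 with TAK-418, differences smaller than the spread of the controls.

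In mice exposed to poly I:C, H3K9Ac was lower with vehicle than in controls as deposited. Of 1369 regions 814 (59.5%) fell, where 64.0% of all tested regions and 61.5% of island regions were called, and the median change was -0.49 against -0.53 over both. Under both rescalings 0 were called (0.0% of all tested regions). Clmn, a membrane-bound calponin-like protein, had 11.1, 9.74 and 7.08 in controls and 6.40, 3.26 and 5.13 with vehicle, a change of -0.81 (limma, Benjamini-Hochberg adjusted p = 0.032). Nfasc, a cell adhesion molecule of axon initial segments and nodes, went from 10.4 ± 2.42 to 5.59 ± 1.71, and Kcnab2, a potassium channel subunit, from 8.37 ± 1.58 to 4.45 ± 1.36. The count was 0 without control 1, control 2, vehicle 2, vehicle 3 or TAK-418 library 2, and 421 without TAK-418 library 1.

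The genes that led in rats gave these values in mice. Mouse Scn2a1 H3K9Ac was 9.40, 8.12 and 5.76 in controls, 5.06, 4.07 and 5.08 with vehicle and 4.75, 4.76 and 3.98 with TAK-418, and mouse Gpm6a was 3.52 with vehicle and 3.55 with TAK-418. Between TAK-418 and vehicle limma called 0 of 1369 mouse regions for H3K9Ac (2 at an unadjusted p under 0.05), and with TAK-418 against controls 0 (985 unadjusted). In both comparisons 0.0% of all tested regions were called. Without control 3 the second count was 1250, and without vehicle 2 it was 790. The difference between species was not tested, since the exposures differ.

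Mouse H3K4me3 had a lower median with vehicle than in controls, among which control 1 was high. With vehicle against controls limma called 0 of 1503 regions (549 at an unadjusted p under 0.05), where 0.0% of all tested regions were called. The median change was -0.41. The count was 844 without control 3, 8 without control 1 and 1 without control 2. With TAK-418 against controls 1 region fell (0.0665%, against 0.00804% of all tested regions). It was Gm14418, an unnamed gene model chosen for mention after its value was seen, with a change of -1.38 (limma, Benjamini-Hochberg adjusted p = 0.00212). It passed after centring and missed after quantile normalization (adjusted p = 0.0553), and the count was 7 without control 1 and 0 without any 1 of the TAK-418 libraries.

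Between TAK-418 and vehicle 0 mouse regions were called for H3K4me3 as deposited by limma, with 16 at an unadjusted p under 0.05, and 22 were called without control 1. Under both rescalings 1 rose and 9 fell, where 0.0643% of all tested regions rose and 0.201% fell. The region that rose was Adipor2, an adiponectin receptor, with 4.63, 3.14 and 3.65 with vehicle and 5.92, 5.05 and 6.14 with TAK-418, without overlap. TAK-418 libraries lay above all vehicle libraries in 5.46% of the tested promoter regions without an island and in 7.86% of all tested regions. Among the 9 that fell, Trim12a, of a family of antiviral proteins, went from 5.57 ± 0.956 to 3.40 ± 0.673. Alpk1, a kinase that senses bacterial sugars, went from 7.26 ± 0.485 to 5.43 ± 0.439, and Fastkd1, of mitochondrial RNA, from 9.63 ± 0.542 to 7.81 ± 0.612. The 10 calls came to 0 without control 1, 2 or 3, vehicle 3, TAK-418 library 1 or TAK-418 library 3, to 1 if vehicle 2 was left out, to 3 if TAK-418 library 2 was, and to 130 if vehicle 1 was.

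For the silencing marks in mice, limma called 0 of 1642 regions for H3K27me3 and 0 of 2208 for H3K9me3 in each of the 3 comparisons, with 0.0% of all tested regions called. At an unadjusted p under 0.05, H3K27me3 gave 0 with vehicle against controls, 4 with TAK-418 against vehicle and 2 with TAK-418 against controls, and H3K9me3 gave 0 in all 3. H3K27me3 was lower with TAK-418 in the median (-0.46 against vehicle, -0.41 against controls), and vehicle 3 was low. Without vehicle 3 all 1642 regions were called in the first of these. Trh had 14.2, 10.1 and 3.14 with vehicle and 4.27, 5.61 and 6.45 with TAK-418. Olfr1024 H3K9me3 was 1.87, 1.81 and 6.27 with vehicle and 6.52, 1.78 and 4.72 with TAK-418, so the libraries of a group differed more than the group means.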

How the data were processed

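ChIP-seq signal of 4 marks was analysed in 72 libraries, 3 per group, mark and species. Pooled inputs were not used here. Reads were aligned with BWA 0.7.12 to rn5 or mm10, per the submitters' processing notes. No source used here gives the peak caller, the bin width or how libraries were scaled to each other. The deposited values were a mean and a highest signal per merged region and library, a present or absent call of an interval, and counts of promoters, CpG islands and genes per region, per the file headers. The tables carry no read counts, so depth is unknown, and counting error could not be given.

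Regions with at least 1 promoter and 0 islands were taken. The members and gene lists were chosen with earlier results of these data known. limma 3.58.1 (R 4.3.3, mean-dependent prior, robust) was fitted per mark and species over 9 libraries on log2(mean signal + 1), for regions with an interval in at least 3 libraries, with Benjamini-Hochberg adjustment at 0.05 over all tested regions. On this scale the change of weakly marked regions is understated. Alternatives for the counts of calls were median centring, quantile normalization, a pseudocount of 0.5 and no interval filter. Further ones were the replicate number as a block and leaving out each library. Median control levels were also taken over regions with exactly 1 promoter and without each control library. The count under both rescalings was chosen after seeing the data. The fit was tested on simulated data.

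Named genes were, per comparison, the 5 largest increases and 5 largest decreases past the threshold in the upper 75% by level. This was done as deposited and under both rescalings. Only the choice as deposited also required groups without overlap. Where none passed, the 2 smallest p in each direction were taken. Per mark the 5 highest control means were named, and per list the 3 highest control means and the 3 smallest p. Not all are printed, and other genes named are examples chosen after their values were seen. Only for mouse H3K27me3, control against TAK-418, did each library deviate most like the one of the same number (r of 0.33, 0.11 and 0.16). The block changed no call there. In mouse H3K4me3, control against vehicle, the same-numbered r were also all positive (0.29, 0.097 and 0.024), but the best match did not always have the same number.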

Additional observations from a re-analysis of the deposited data

How the results depend on the processing

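Signal without read counts gives no depth, so weakly marked regions cannot be told from unmarked ones, and 3 libraries a group limit every test. A pseudocount of 0.5 kept every count as deposited on its side of the threshold with its direction. It was not applied to the relative calls. Regions with exactly 1 promoter were used for the median control levels alone. All 8 levels moved by less than the SD between control libraries. For rat H3K9Ac, vehicle against control gave 531 calls after median centring (88 higher, 443 lower) and 17 after quantile normalization (all lower), the opposite direction to the 1759 as deposited. TAK-418 against vehicle gave 510 (446 higher, 64 lower) and 132 (124 higher, 8 lower), against 39 lower as deposited. Both rescalings left 0 calls in each of the 3 rat H3K4me3 comparisons, in rat H3K9me3 for both exposed groups against controls and in mouse H3K9Ac for vehicle against control. Mouse H3K4me3 for TAK-418 against vehicle gave 11 and 17, for TAK-418 against control 0 after quantile normalization, and rat H3K27me3 for TAK-418 against control 1 after quantile normalization. The cause was not tested.

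Without the interval filter, which adds many weak regions to the tests, the 3 rat H3K4me3 counts and rat H3K9Ac TAK-418 against vehicle came to 0, rat H3K9me3 to 66 (vehicle) and 90 (TAK-418) against controls, and mouse H3K9Ac to 1 for each exposed group against controls. Mouse H3K4me3 gave 4 (vehicle) and 5 (TAK-418) and mouse H3K9me3 2 (vehicle) against controls.

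With the replicate number as a block, rat H3K4me3 gave 4 calls (vehicle against control) and 0 (TAK-418 against vehicle), rat H3K9Ac 279 (TAK-418 against vehicle) and 1 (TAK-418 against control), rat H3K9me3 22 (vehicle) and 16 (TAK-418) against controls, mouse H3K4me3 2 (vehicle against control) and mouse H3K9Ac 1084 (TAK-418 against control). The relative calls of rat H3K9Ac came to 3 (vehicle against control) and 58 (TAK-418 against vehicle). Apart from the mouse H3K27me3 control and TAK-418 libraries, in no pair of groups was every library closest to the one of the same number. All other counts stayed at 0 or within a ratio of 1.5 of the count without the block, which does not mean that the same regions were called.

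Leaving out each library in turn gave counts for vehicle against control of 1 to 333 (rat H3K4me3), 1101 to 2083 (rat H3K9Ac), 1 to 2431 (rat H3K9me3), 0 to 844 (mouse H3K4me3) and 0 to 1195 (mouse H3K9Ac). For TAK-418 against vehicle they were 0 to 26 (rat H3K4me3), 0 to 1728 (rat H3K9Ac), 0 to 2 (rat H3K9me3), 0 to 22 (mouse H3K4me3) and 0 to 1642 (mouse H3K27me3). For TAK-418 against control they were 261 to 1423 (rat H3K4me3), 0 to 1531 (rat H3K9Ac), 1 to 1898 (rat H3K9me3), 0 to 7 (mouse H3K4me3) and 0 to 1250 (mouse H3K9Ac). Relative calls ranged from 0 to 174 (rat H3K9Ac, vehicle against control), 0 to 151 (rat H3K9Ac, TAK-418 against vehicle) and 0 to 130 (mouse H3K4me3, TAK-418 against vehicle).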
